A study of Homo sapiens with 6 samples.

Results

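The cytosolic ribosomal protein genes were described in 76N cells, a strain of normal human mammary epithelial cells, transfected with Ecd siRNA or with control siRNA. Ecd siRNA targets ECD, the human ecdysoneless gene. Each group had 3 arrays labelled as biological replicates, and both groups were grown in DFCI-1 medium. The siRNA sequences, dose and time are not given in the sources used here. Members were all probe sets whose single gene symbol was RPL or RPS and a number. The pattern also allowed the stalk genes and RPSA, and pseudogenes were left out. The rule found 121 of 54675 probe sets, which read 60 of 19775 genes, 39 of them RPL and 21 of them RPS genes. A further 15 genes of the pattern were read only by probe sets with several symbols and were not analysed here. RPLP0, RPSA, RPL5 and RPL26 were not among the 60 genes.

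Ribosomal proteins coat the ribosomal RNAs of the small (40S) and large (60S) subunits, and most are made in equal amounts in every growing cell. Their mRNAs are short, very abundant and long-lived, and most begin with a pyrimidine tract (the TOP motif) through which mTOR and LARP1 control their translation. An array of total RNA measures the amount of these mRNAs and not their translation. A few members have a paralog, a second gene for a closely related protein, and several paralogs are used mainly in particular tissues.

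A run of C and T at the annotated start of a gene is the sequence expected of a TOP transcript. The 100 bases around the start (80 before it, 20 from it) are therefore printed for paralogs and canonical genes compared below. Whether transcripts in these cells begin at the annotated starts was not tested, so a missing run does not show that the TOP feature is absent. They are from RefSeq on GRCh38.p14, each on the strand of its gene, and capitals mark an unbroken run of C and T that opens with C at the first transcribed base.
RPL22L1 (chr3:170870176-170870275, minus strand): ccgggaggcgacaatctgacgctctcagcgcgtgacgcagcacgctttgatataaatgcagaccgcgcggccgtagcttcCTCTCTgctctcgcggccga
RPL22 (chr1:6199576-6199675, minus strand): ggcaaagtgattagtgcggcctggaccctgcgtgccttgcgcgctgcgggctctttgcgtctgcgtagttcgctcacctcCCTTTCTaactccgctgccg
RPL39 (chrX:119791611-119791710, minus strand): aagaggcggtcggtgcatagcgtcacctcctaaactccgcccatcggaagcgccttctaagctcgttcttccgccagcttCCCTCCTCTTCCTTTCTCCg
RPL26L1 (chr5:172958649-172958748, plus strand): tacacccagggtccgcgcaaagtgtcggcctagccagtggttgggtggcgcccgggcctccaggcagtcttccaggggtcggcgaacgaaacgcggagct
RPS27L (chr15:63157458-63157557, minus strand): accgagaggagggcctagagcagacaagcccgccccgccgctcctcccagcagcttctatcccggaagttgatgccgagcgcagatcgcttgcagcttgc
RPS27 (chr1:153990682-153990781, plus strand): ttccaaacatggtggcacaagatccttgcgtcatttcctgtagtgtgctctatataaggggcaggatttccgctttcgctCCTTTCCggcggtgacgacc
The run was 6 bases in RPL22L1, 7 in RPL22, 19 in RPL39 and 7 in RPS27, and there was none at the start shown for RPS27L or for RPL26L1, which has more than 1 listed start. Of the 52 members with an entry, 35 (67.3%) had a run of at least 5 bases at a listed start, against 5.14% of all 27305 genes in the table. Among canonical members it was 34 of 46, and among paralogs 1 of 6, RPL22L1. The letters CCGGAAGT, a site for ETS-family factors, stood on either strand of the 300-base window in 21.2% of members and 4.95% of all genes. The E-box letters CACGTG stood in 7.69% of members and 8.77% of all genes. These are descriptions of the sequence and were not related to the signals.

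The level of ECD checks the labels. ECD gave signals of 588.9, 599.8 and 542.5 on the Ecd siRNA arrays, against 1076.6, 1011.4 and 1007.2 on the control siRNA arrays. It fell by 0.82 on the log2 scale (limma, SE 0.096, adjusted p = 0.000172), and the groups did not overlap. A two-sided exact permutation test gave p = 0.1, the smallest that 3 arrays against 3 allow. Of 10 mammary epithelial markers, 7 were read by single-symbol probe sets, and they summed to 64353 to 68127 with Ecd siRNA and 63416 to 68517 with control siRNA. Of these 7, CDH1 rose by 0.25 (limma adjusted p = 0.00935) and KRT18 fell by 0.52 (limma adjusted p = 0.00187). Of the 10 fibroblast markers 5 were tested and 2 were higher by limma, FAP and COL1A1, and the sums of all 10 were 7017 to 7945 with Ecd siRNA and 4153 to 4814 with control siRNA. Without FAP the other 9 summed to 2000 to 2265 with Ecd siRNA and 1766 to 2204 with control siRNA, overlapping ranges. THY1 and COL1A2 changed by -0.32 and -0.17, which did not pass the threshold. COL3A1, LUM, PDGFRA, PDGFRB and COL6A3 were below the signal filter. The 3 leukocyte markers read had none above the filter. The part of these marker differences in the results below was not tested.

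After Ecd siRNA the brightest probe sets of the canonical ribosomal protein genes gave signals close to those of the controls. In contrast, 3 paralogs, RPL22L1, RPL39L and RPL26L1, fell. Of the 58 member genes above the signal filter, 0 were higher and 3 (5.17%) were lower at an adjusted p under 0.05 (limma over 14603 genes). Over all genes tested, 21.1% passed that threshold, 10.1% higher and 11% lower. The median change of the members was 0.04 on the log2 scale, beside 0.01 over all genes. The paralogs made up all 3 calls, out of 7 tested, and the canonical genes made up none, out of 51.

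**Figure D1:**
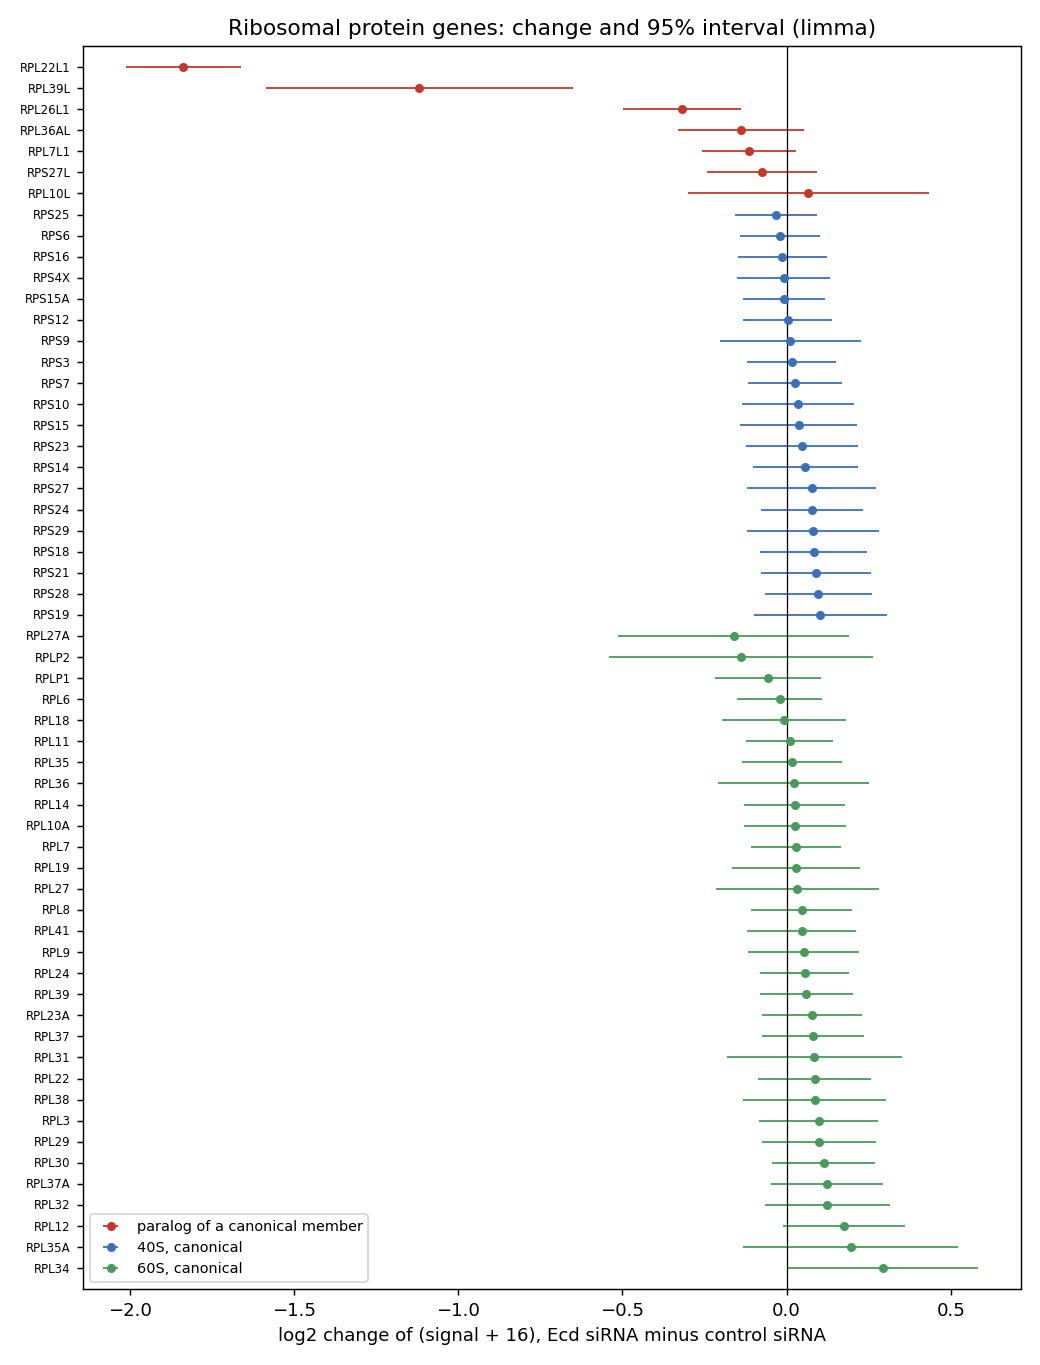
Log2 change (Ecd siRNA minus control siRNA) of each member gene tested, with 95% confidence intervals from limma. Canonical members lie between -0.16 and 0.29, while RPL22L1 lies at -1.84 and RPL39L at -1.12.

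RPL22L1 encodes the paralog of RPL22, and either protein can occupy the same place in the 60S subunit. Its signals were 2161.0, 2505.5 and 2256.5 with Ecd siRNA and 7690.1, 8685.1 and 8469.8 with control siRNA. The highest Ecd siRNA array lay far below the lowest control array. The mean was 2308 ± 178 with Ecd siRNA and 8282 ± 524 with control siRNA (SD, n = 3 each), so that 27.9% of the control signal was left. The log2 change was -1.84 (limma, SE 0.079, 95% interval -2.01 to -1.66, adjusted p = 2.47e-07). In bulk RNA, fewer cells of a type and less RNA per cell cannot be told apart.

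RPL22 itself did not pass the threshold on its brightest probe set. It gave 18918.3, 16683.3 and 15589.3 with Ecd siRNA, against 16520.9, 16579.0 and 15046.1 with control siRNA, and the groups overlapped. Its log2 change was 0.09 (95% interval -0.09 to 0.26, limma adjusted p = 0.509). On the same arrays the log2 changes of RPL22L1 and this RPL22 probe set differed by -1.92 (SE 0.15, two-sided exact permutation p = 0.1). After adjustment over 10 such pairs, which were chosen after their values were seen, the permutation p was 0.125. A dimmer RPL22 probe set, described below, rose by 0.35 with groups that did not overlap (limma over probe sets, adjusted p = 0.00528).

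RPL39L is the paralog of RPL39, which lines the exit tunnel of the 60S subunit, and is best known from male germ cells. Its signals were 288.0, 307.5 and 177.7 with Ecd siRNA and 654.5, 601.7 and 454.5 with control siRNA. All 3 Ecd siRNA arrays were below all 3 control arrays. The log2 change was -1.12 (limma, SE 0.21, adjusted p = 0.00353). RPL39 gave 20563.7, 19882.6 and 18801.0 with Ecd siRNA, against 19578.8, 19639.0 and 17619.1 with control siRNA, overlapping groups with a log2 change of 0.06 (95% interval -0.08 to 0.20, limma adjusted p = 0.577). The difference between the changes of RPL39L and RPL39 was -1.18 (SE 0.23, exact permutation p = 0.1).

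RPL26L1 encodes a near-copy of RPL26, a protein of the tunnel rim. It gave 2798.3, 2826.3 and 2657.1 with Ecd siRNA, against 3373.7, 3798.2 and 3182.5 with control siRNA. The lowest control array lay above the highest Ecd siRNA array. The log2 change was -0.32 (limma, SE 0.081, adjusted p = 0.0181). The call was lost without Ecd siRNA replicate 3 (adjusted p = 0.0569), control siRNA replicate 1 (0.0549) or control siRNA replicate 2 (0.0710), and without the intensity trend (0.0788, limma).

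The other 4 paralogs tested did not pass on their brightest probe sets. RPL7L1, a relative of RPL7, gave 5598.5, 5382.7 and 5313.0 with Ecd siRNA and 5793.7, 5662.3 and 6201.6 with control siRNA. Its groups did not overlap, and the log2 change was -0.11 (95% interval -0.26 to 0.03, limma adjusted p = 0.256). RPL36AL, the autosomal copy of RPL36A, gave 7965.3, 6679.0 and 6900.9 with Ecd siRNA, against 7274.9, 8654.0 and 7808.3 with control siRNA, with a log2 change of -0.14 (limma adjusted p = 0.307). RPS27L, a p53-responsive relative of RPS27, gave 9154.2, 7584.6 and 8228.1 with Ecd siRNA, against 8523.4, 8673.4 and 9031.4 with control siRNA. Its highest and its lowest array were both Ecd siRNA arrays, and the log2 change was -0.07 (limma adjusted p = 0.557). RPL10L, known from testis, gave 276.5, 381.4 and 329.4 with Ecd siRNA, against 285.3, 288.9 and 364.5 with control siRNA, a log2 change of 0.07 (limma adjusted p = 0.832). RPL3L, the muscle paralog of RPL3, and RPL36A were below the filter. RPL3L was at 30.5, 27.4 and 13.9 with Ecd siRNA and 39.5, 26.1 and 19.7 with control siRNA. RPL36A was at 54.8, 46.1 and 31.9 with Ecd siRNA and 32.6, 11.2 and 20.5 with control siRNA.

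**Figure D2:**
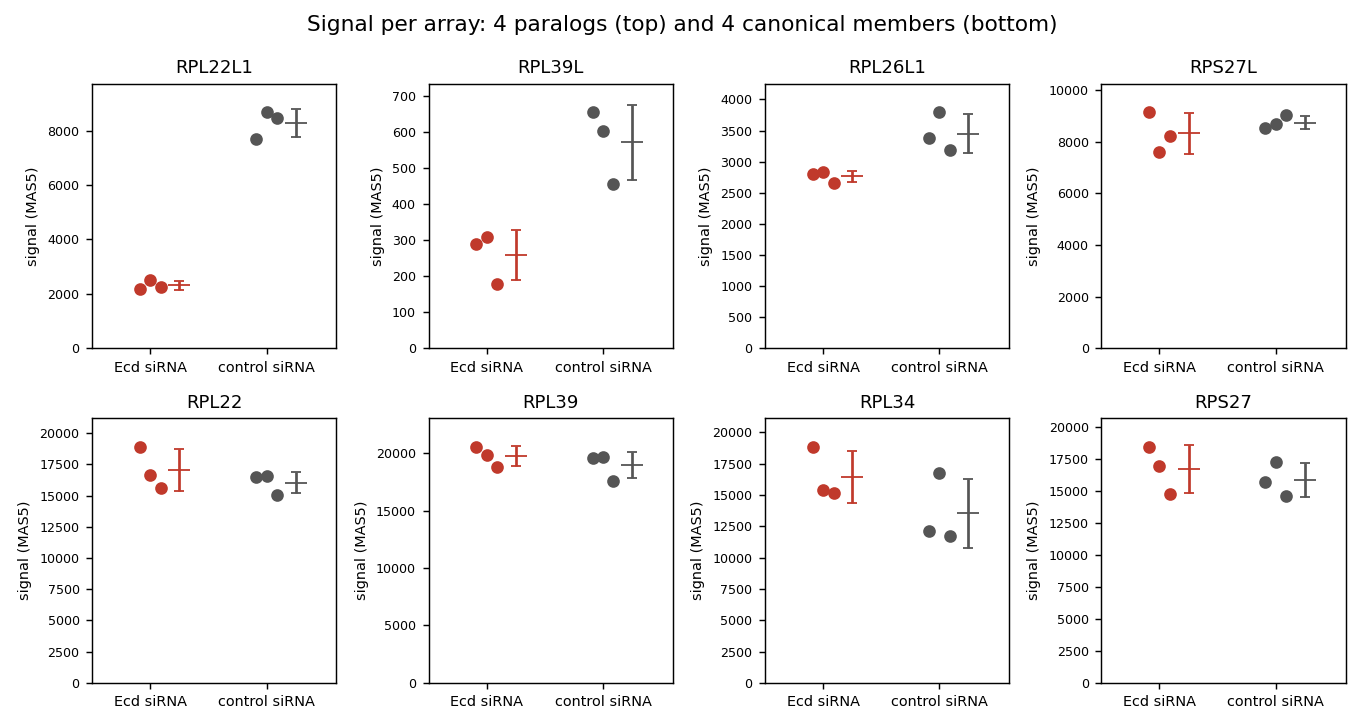
Signal (MAS5, linear scale) on each array for 4 paralogs (top) and 4 canonical members (bottom), Ecd siRNA left of control siRNA; bars are means with SD (n = 3). RPL22L1, RPL39L and RPL26L1 separate by group, while RPS27L and the canonical members, each on its brightest probe set, overlap.

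On its brightest probe set, no gene of the 51 canonical ones passed the threshold. On that probe set no canonical gene had groups that did not overlap, beside 36.4% of all genes tested. Taken probe set by probe set, 8 of the 97 canonical probe sets tested had groups that did not overlap, beside 33.6% of all probe sets. At an unadjusted p under 0.05 there was 1, RPL34. The median log2 change of the canonical genes was 0.05, with 41 above 0 and 10 below, and changes ran from -0.16 to 0.29. The 95% interval lay within ±0.2 for 17 of them, within ±0.3 for 42 and within ±0.4 for 47. These intervals reflect only the spread of the measured signal between arrays. A weaker response of the arrays at high signal, or probes shared with other transcripts, is not covered by them and was not tested. A p above the threshold does not show that levels were equal. Averaging all probe sets of a gene instead gave 3 higher canonical genes, RPL37, RPS24 and RPS29, and preferring probe sets without _s or _x gave 2, RPL22 and RPL37.

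The 20 genes of the 40S subunit had a median log2 change of 0.04, with a range of -0.03 to 0.10. RPS6, the substrate of S6 kinase, gave 23275.8, 22301.6 and 22742.5 with Ecd siRNA and 23211.4, 24048.3 and 22020.2 with control siRNA. RPS16 gave 26165.3, 24879.5 and 25310.1 with Ecd siRNA and 26420.4, 26939.5 and 23756.2 with control siRNA. In both, the groups lay across each other, with log2 changes of -0.02 and -0.01 (limma adjusted p = 0.855 and 0.922). RPS10, of the 40S head, gave 27816.7, 23730.5 and 23452.4 with Ecd siRNA, against 25154.0, 25403.4 and 22556.3 with control siRNA (log2 change 0.03, limma adjusted p = 0.812). The 10 head proteins tested had a median log2 change of 0.04. RPS27, the counterpart of RPS27L, gave 18433.3, 16957.6 and 14734.3 with Ecd siRNA, against 15660.1, 17204.9 and 14590.4 with control siRNA (log2 change 0.08, limma adjusted p = 0.620).

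The 31 canonical genes of the 60S subunit had a median log2 change of 0.05 and a wider range, -0.16 to 0.29. RPL34 gave 18851.5, 15365.0 and 15180.5 with Ecd siRNA and 12145.9, 16730.1 and 11731.3 with control siRNA. Its second control array lay among the Ecd siRNA arrays, and the log2 change was 0.29 (limma, SE 0.13, adjusted p = 0.147), or 0.46 without control siRNA replicate 2 (adjusted p = 0.00987). RPL35A gave 18972.5, 15303.4 and 11247.1 with Ecd siRNA, against 12800.8, 13526.6 and 12564.7 with control siRNA. Its lowest array was the third Ecd siRNA array, and the log2 change was 0.20 (limma adjusted p = 0.416), or 0.39 without that array (adjusted p = 0.0145). RPL41, the smallest ribosomal protein, gave 24333.2, 23199.1 and 21149.9 with Ecd siRNA, against 23327.9, 23130.2 and 20099.8 with control siRNA (log2 change 0.05, limma adjusted p = 0.736). RPL37A gave 25747.3, 22937.6 and 21690.8 with Ecd siRNA, against 21795.2, 22944.6 and 19869.7 with control siRNA (log2 change 0.12, limma adjusted p = 0.316). The 6 tested genes of the tunnel rim ran from 0.02 to 0.09 on the log2 scale. RPL11, which with RPL5 and 5S RNA binds MDM2, changed by 0.01.

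Both lowest canonical values belonged to dim probe sets. RPL27A gave 595.6, 823.0 and 900.8 with Ecd siRNA, against 960.0, 885.7 and 731.7 with control siRNA. RPLP2, of the stalk that recruits elongation factors, gave 246.8, 238.2 and 349.9 with Ecd siRNA, against 346.1, 299.4 and 269.7 with control siRNA. The groups of each overlapped, with log2 changes of -0.16 and -0.14. RPLP1, its bright partner in the stalk, changed by -0.06.

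The canonical genes were among the brightest on the array. Of the 25 genes with the highest mean signal 12 were members, of the first 50 genes 24 were, and of the first 100 genes 43 were. The 49 canonical genes with a mean signal over 5000 read 8481.9 to 27816.7, while the highest value of any probe set on an array was 24573 to 27987. How far the arrays still respond in that range was not tested. Of the 230 other genes with a mean signal at least that of the dimmest of the 49, 49 (21.3%) passed the threshold, 31 higher and 18 lower. These 230 genes were not matched in brightness to the canonical genes, whose median rank by mean signal was 51. The members together made up 4.34% ± 0.26 of the summed signal of all genes with Ecd siRNA and 4.23% ± 0.28 with control siRNA (SD, n = 3 each), which differed by less than the spread between arrays.

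The canonical genes shared a shift from array to array within a group. Their median deviation from the gene means was 0.14 on the log2 scale on Ecd siRNA replicate 1, 0.02 on replicate 2 and -0.06 on replicate 3. On control siRNA replicates it was 0.01, 0.04 and -0.14. Ecd siRNA replicate 1 was the highest of its group in 42 of the 49 bright genes, and control siRNA replicate 3 the lowest of its group in 47. The 230 other bright genes, not matched in brightness, deviated by 0.05 on the first of these arrays and -0.05 on the second. All genes deviated by 0.01 and -0.01. Without Ecd siRNA replicate 1 the canonical genes divided into 27 above 0 and 24 below, and without control siRNA replicate 3 into 19 and 32. The GAPDH 3′ to 5′ signal ratio was 0.974 to 1.003 over the 6 arrays, highest on Ecd siRNA replicate 1, and the ACTB ratio was 1.065 to 1.158, highest on Ecd siRNA replicate 3. The part of RNA quality and scaling in the shared shift was not tested.

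**Figure D3:**
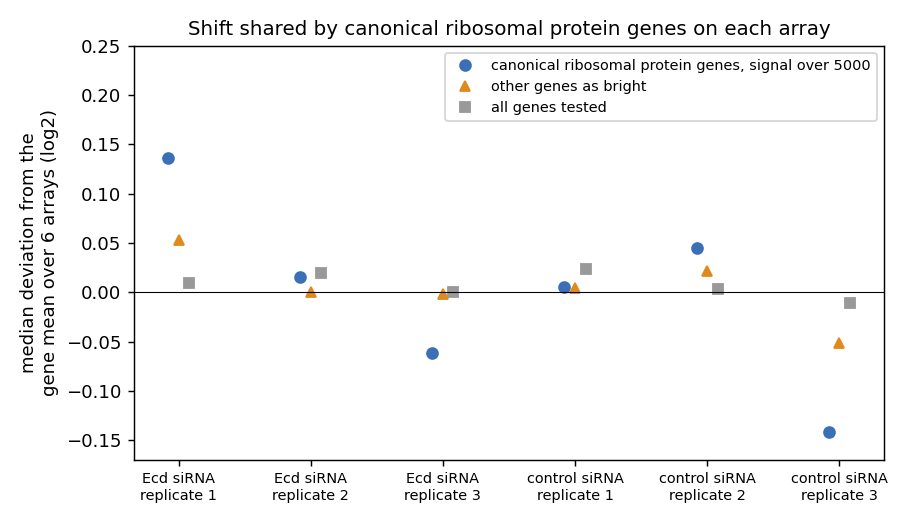
Median deviation (log2) on each array from the gene means over 6 arrays. Shown are the 49 canonical members with a signal over 5000, 230 other bright genes and all genes. The 230 have a mean signal at least that of the dimmest of the 49 and are not matched in brightness. Ecd siRNA replicate 1 lies at 0.14 and control siRNA replicate 3 at -0.14 for the canonical members, and the other bright genes deviate less.

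Genes with several probe sets were also read one probe set at a time. Of the 106 member probe sets tested, 4 were higher and 5 lower (limma over 27009 probe sets), beside 8.3% higher and 8.62% lower over all probe sets. In 3 calls the probe set was the gene's brightest (RPL22L1, RPL39L, RPL26L1), and in 6 it was a dimmer one. Of the 48 tested probe sets that were not their gene's brightest, 19 were over 10000 and 0 of these were called, while 6 of the 29 under 10000 were. The most probe sets for a gene were 5, for RPL22 and RPL35A.

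Among the higher ones, a dimmer RPL37 probe set gave 1285.2, 1192 and 1331.2 with Ecd siRNA, against 811.3, 787.2 and 808.2 with control siRNA (log2 change 0.65, limma adjusted p = 0.000932). Another dim RPL37 probe set gave 1059.3, 835.1 and 979.8 with Ecd siRNA, against 654.5, 614.1 and 712.4 with control siRNA, and rose by 0.52 (limma adjusted p = 0.0131, but 0.0501 without control siRNA replicate 1). The groups of both were apart, and the difference from the gene's brightest probe set was 0.57 and 0.44. A still dimmer RPL37 probe set changed by -0.07, with overlapping groups (limma adjusted p = 0.850). A dim RPS29 probe set gave 353.7, 280.7 and 319.3 with Ecd siRNA, against 192.8, 156.4 and 139.6 with control siRNA (log2 change 0.91, limma SE 0.18, adjusted p = 0.00701). A dimmer RPL22 probe set gave 5623.2, 5476.3 and 5228.2 with Ecd siRNA, against 4417, 4094.8 and 4275.6 with control siRNA (log2 change 0.35, limma SE 0.066, adjusted p = 0.00528, but 0.0541 without the intensity trend). That probe set was the only one for RPL22 without _s or _x in its name, and the others changed by 0.04 to 0.09.

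Among the lower ones, a dim RPL31 probe set gave 442.6, 413.6 and 395.3 with Ecd siRNA, against 725.3, 811.2 and 678.3 with control siRNA (log2 change -0.80, limma SE 0.12, adjusted p = 0.00126). RPL31 encodes a protein of the tunnel rim, and its groups on this probe set, which carries the _s mark, were well apart. Another dim RPL31 probe set, without _s or _x in its name, changed by 0.12 with overlapping groups (limma adjusted p = 0.600). The brightest RPL31 probe set changed by 0.08. A dim RPS27L probe set gave 505.1, 559.3 and 612.6 with Ecd siRNA, against 717.9, 740.9 and 806.4 with control siRNA (log2 change -0.43, limma adjusted p = 0.0286). That call was lost without the intensity trend (limma adjusted p = 0.0559) and without any array but Ecd siRNA replicate 3 (limma adjusted p = 0.0648 to 0.0915). Which transcripts the dimmer probe sets read was not tested. Ribosomal protein genes have many near-identical pseudogenes, and 39 member probe sets carried the _s mark and 36 the _x mark, which denote probes shared with other transcripts. Of the brightest probe sets of the canonical genes, 9 had neither mark, with log2 changes of -0.01 to 0.29.

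**Figure D4:**
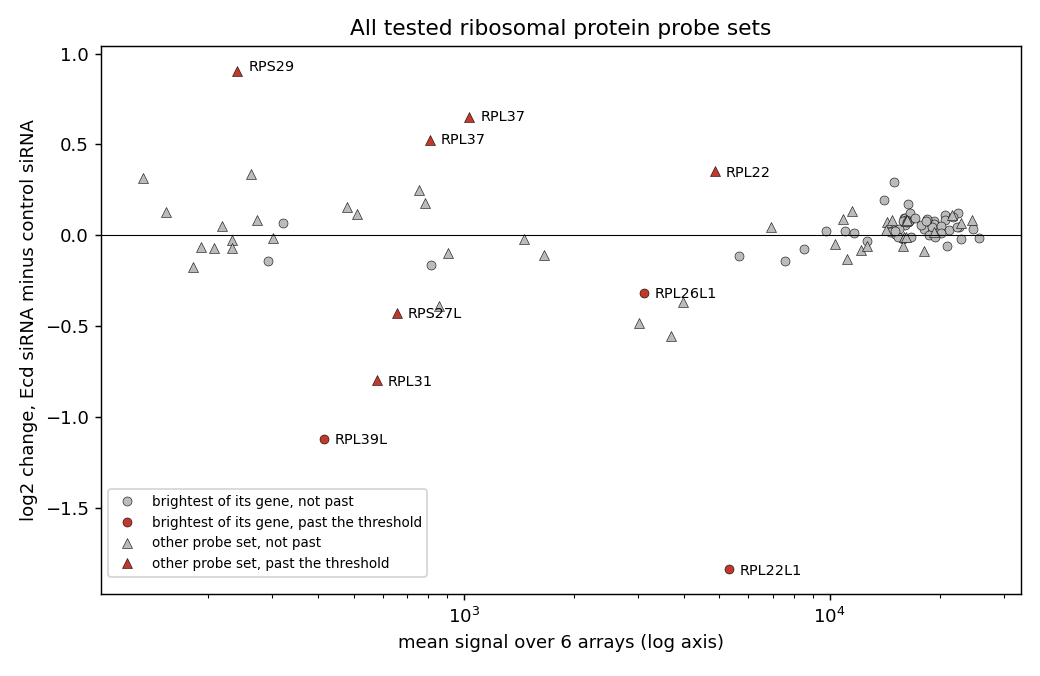
Log2 change (Ecd siRNA minus control siRNA) of each of the 106 member probe sets tested against its mean signal (log axis), with the probe sets past the threshold marked. Probe sets over 10000 lie between -0.13 and 0.29, and the called ones are all dimmer.

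Genes that act with the cytosolic ribosomal proteins were set beside them, against a background of 11% lower and 10.1% higher over all genes tested. Of 15 other TOP mRNA genes tested, 0 were higher and 1 lower, with a median log2 change of 0.02. The 1 called, NAP1L1, fell by 0.19 (limma adjusted p = 0.0343), a call that was lost under 9 of 17 alternatives, among them leaving out any array but Ecd siRNA replicate 1 (limma adjusted p = 0.0729 to 0.106). Where probe sets without _s or _x were preferred, its change was -0.013 (limma adjusted p = 0.974). In that list NPM1 changed by -0.15 (adjusted p = 0.111). FAU encodes a 40S protein fused to a ubiquitin-like domain, and its symbol lies outside the pattern of the members. It gave 10324.9, 11804.8 and 10528 with Ecd siRNA, against 11989.7, 12844 and 12243.3 with control siRNA. Its groups did not overlap, and it changed by -0.18 (limma adjusted p = 0.0791, and 0.0382 to 0.233 over 17 alternatives). Of the 40 ribosome biogenesis genes tested, 21 were lower and 0 higher, with a median of -0.35. LYAR fell by 0.81, FBL, the methyltransferase of box C/D particles, by 0.61 and UTP4 by 0.56. Of the 10 genes for chaperones and partners of single ribosomal proteins, 5 were lower and 0 higher. The 5 include NAP1L1, already counted above with the TOP mRNA genes, and LTV1, whose groups overlapped (limma adjusted p = 0.0474). They also include PRMT3 (limma adjusted p = 0.0192, and 0.0143 to 0.0687 over 17 alternatives). PDCD2, which escorts RPS2, fell by 0.61 (limma adjusted p = 0.00268) and BCCIP, which escorts RPL23, fell by 0.53 (adjusted p = 0.000819).

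The proteins of the mitochondrial ribosome, encoded by a separate gene set, had 31 of 75 genes lower and 0 higher, with a median log2 change of -0.28, beside 11% lower and 10.1% higher over all genes tested. MRPL12 gave 871.7, 986.7 and 819.4 with Ecd siRNA, against 1469.6, 1668 and 1606.2 with control siRNA, and fell by 0.82 (limma adjusted p = 0.000222). MRPL1 fell by 0.62 and MRPL4 by 0.60. Of 16 regulators of ribosomal protein mRNAs, 1 was lower, EIF4EBP1, the mTOR-controlled inhibitor of eIF4E, which fell by 0.55 (limma adjusted p = 0.000457). These counts stand beside the 0 of 51 canonical ribosomal protein genes called. The difference between the lists was not tested.

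**Figure D5:**
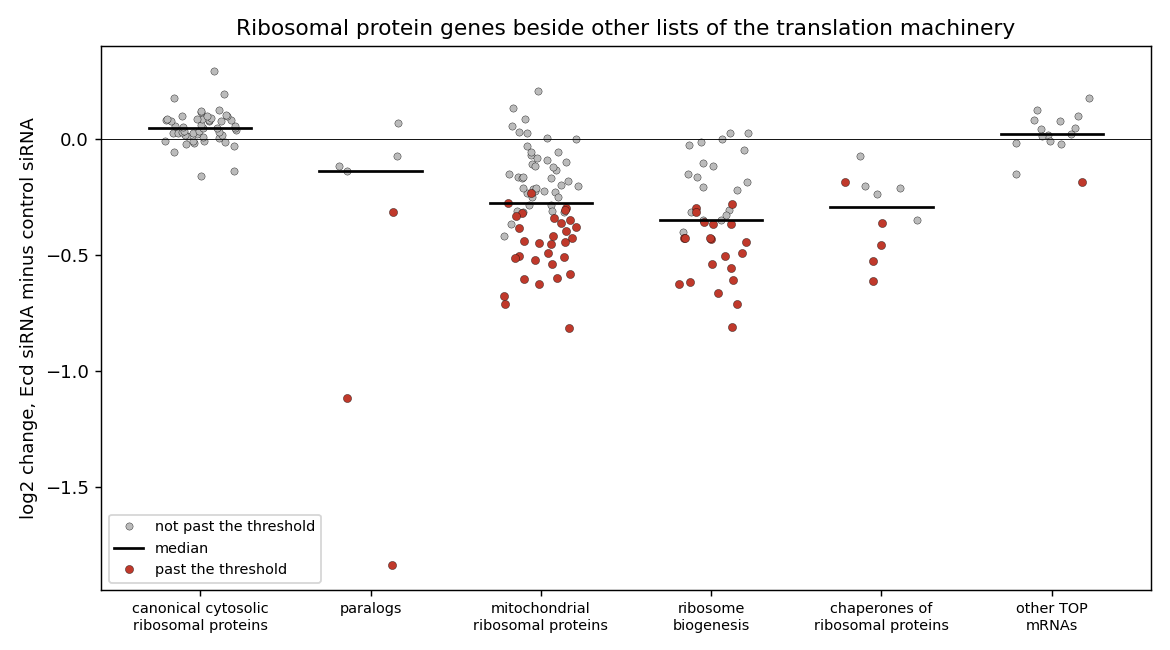
Log2 change (Ecd siRNA minus control siRNA) of each gene of the canonical ribosomal protein genes, the paralogs and the other lists. Canonical members lie around 0.05, while the median is -0.28 for mitochondrial ribosomal protein genes and -0.35 for ribosome biogenesis genes.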

How the data were processed

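The values were array signal intensities deposited by the authors, made with MAS5 per the submitters' processing notes; its version and scaling are not given in the sources used here. All 6 arrays were used. Probe sets were named from the platform annotation, and only those with 1 symbol were kept. From the deposited intensities, log2(signal + 16) was taken, the brightest probe set stood for each gene, and genes were tested where that probe set's mean reached a signal of 84.6, which 60% of probe sets do. The contrast of Ecd siRNA minus control siRNA was fitted with limma 3.58.1 (R 4.3.3, eBayes with an intensity trend) over 14603 genes, and over 27009 probe sets, with Benjamini-Hochberg adjustment and a threshold of 0.05. Fold changes of dim genes are understated on this scale. The fit was tested on simulated data. Permutation tests used scipy 1.17.1.

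Named in full were ECD, members past the threshold, the 5 brightest members, every paralog, and up to 3 genes of each other list. RPL34, RPL35A, RPL27A, RPLP2 and the pairs of probe sets were named after their values were seen. The members and lists were chosen with earlier results of these data known. The number of arrays limits precision. Alternatives were the pseudocount, normalization, filter, choice of probe set, intensity trend, array weights, replicate block and leaving out each array.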

Additional observations from a re-analysis of the deposited data

How the results depend on the processing

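RPL22L1 and RPL39L passed the threshold under all 17 alternatives, with log2 changes of -1.90 to -1.79 and -1.27 to -0.89. Lower calls among ribosomal protein genes numbered 2 to 4, and canonical lower calls 0. The 4 included RPS27L, where probe sets without _s or _x were preferred (log2 change -0.43, limma adjusted p = 0.0221). Higher calls, 0 in the report, were 3 with the mean of probe sets, 2 with probe sets without _s or _x preferred, and 0 to 1 leaving out each array. Lower probe sets, 5 in the report, were 3 without the intensity trend and 3 to 6 leaving out each array. Higher calls on the other lists, 0 in the report, were 1 under quantile normalization, a common median, the filter at the upper 40% and the replicate block, and 0 to 1 leaving out each array. The summed share was 3.54% with Ecd siRNA and 3.48% with control siRNA where probe sets without _s or _x were preferred.

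Signs turned, with no call on either side, for RPL10L (-0.041 without Ecd siRNA replicate 2, range -0.041 to 0.18 leaving out each array), RPS16 (0.025 with a common median, -0.068 to 0.022 leaving out each array), RPS10 (-0.0091 with quantile normalization, -0.045 to 0.078 leaving out each array), RPS6 (0.018 with a common median, -0.053 to 0.010 leaving out each array), RPL41 (-0.025 with quantile normalization, -0.023 to 0.10 leaving out each array) and RPL37A (-0.13 with the mean of probe sets). The canonical genes divided into 23 above 0 and 28 below with quantile normalization, and 48 and 3 with a common median, so the sign of their small median depends on the scaling. With the replicate block, calls among ribosomal protein genes were 0 higher and 3 lower. Same-numbered arrays had correlations of deviations of -0.0093, 0.079 and 0.15, and differently numbered arrays of -0.13 to 0.057. The labels do not say that the numbers pair the samples, and the main fit did not pair them. These correlations do not settle whether they do. With the mean of probe sets MRPL12 and PDCD2 lost their calls (limma adjusted p = 0.0570 and 0.254), and so did MRPL4 where probe sets without _s or _x were preferred (0.146). The 3 arrays a group limit the precision, and the response of the arrays near the top of their signal range was not tested. The causes of these shifts were not tested.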
